A study of Mus musculus with 14 samples.

Results

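Uteri labelled as carrying a conditional knockout of HIF2A (HIF2A cKO) were compared with wild-type (WT) uteri at diestrus, the stage of the mouse estrous cycle governed by luteal progesterone. The comparison held 8 of the 14 RNA sequencing libraries of the series, 4 per genotype. All came from whole uterus of FVB/N mice aged 2 months, with the ovaries in place and no treatment given. The labels name neither the Cre line nor the deleted exons, so which cells lost HIF2A is not known here. A gene entered the comparison if it reached 1 FPKM (fragments scaled by transcript length and by the mapped total of the library) in at least 3 of the 8 libraries. That rule kept 13806 of 31274 gene symbols, and 13803 were tested. Col1a1, Col1a2 and the small RNA Snora68 were left out because they were listed at exactly 0 in some libraries and at 50 FPKM or more in others. Col1a1 and Col1a2, the chains of type I collagen, were listed at 0 in all 4 HIF2A cKO libraries and ran from 573 to 1332 FPKM in WT. A listed 0 may stand for an estimate that failed.

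HIF2A, encoded by Epas1, is an oxygen-regulated transcription factor that pairs with ARNT and binds hypoxia response elements with the core ACGTG or GCGTG. Prolyl hydroxylases mark it for degradation when oxygen is present. In the uterus progesterone, acting through the receptor Pgr, induces the epithelial ligand Ihh, which signals to the stroma through Ptch1 and Nr2f2 and holds back the growth that estrogen drives through Esr1. In whole tissue a lower value can mean fewer cells of a type or less RNA per cell, and these cannot be told apart.

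Epas1 (chromosome 17, 86753700 to 86833410, plus strand, mm10) did not bear out the genotype labels. Its level was 31.9, 32.7, 43.5 and 31.2 FPKM in the WT libraries and 37.3, 35.1, 45.4 and 40.1 in those labelled HIF2A cKO, so the groups overlapped. The difference, HIF2A cKO minus WT on the log2(FPKM + 1) scale that is used throughout, was 0.18 (SE 0.12, adjusted p = 0.347 in limma, and 0.138 with the replicate number as a block). An exact two-sided permutation test gave p = 0.229, where 4 against 4 libraries cannot go below 0.0286. One value per gene does not show the loss of single exons, or a loss in part of the cells, and every direction below rests on the labels.

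The table gives no counts, and the absolute depth of a library is therefore unknown. Ratios of the lowest values, which in FPKM differ by the worth of 1 fragment, placed the relative depth of the libraries between 1 (HIF2A cKO replicate 3) and 1.80 (HIF2A cKO replicate 4). Log2 values correlated across genes with r from 0.953 to 0.991 within WT and from 0.958 to 0.994 within HIF2A cKO. HIF2A cKO replicate 3 stood apart. Its median correlation was 0.958 with its own group and 0.967 with WT. On the first principal component it stood at -13.4, among the WT libraries (-41.2 to -11.5), whereas the other HIF2A cKO libraries stood at 35.8, 37.5 and 21.5. WT replicate 3 held the WT end of that range. The 45S ribosomal precursor stood at 456 to 578 FPKM in WT, at 223 to 237 in HIF2A cKO replicates 1 to 3 and at 1890 in HIF2A cKO replicate 4. The part of these features in the results below was not tested beyond the values given without libraries.

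In limma with Benjamini-Hochberg adjustment, 412 of 13803 genes (2.98%) passed the threshold of 0.05. Of these, 249 (1.80%) were higher and 163 (1.18%) lower in HIF2A cKO, and 72 differed by at least 2-fold (41 higher, 31 lower). In 411 of the 412 the values of the groups did not overlap, against 8.99% of all tested genes that lay wholly higher and 7.01% wholly lower in HIF2A cKO. Over all genes the median difference was 0.02, with the 5th and 95th percentiles at -0.53 and 0.55. Same-numbered libraries deviated together, and with the replicate number as a block 2098 genes (15.2%) passed, 1233 (8.93%) higher and 865 (6.27%) lower. All 412 were among them. All 412 also had the same direction in each of the 4 pairs, which the lack of overlap fixes in advance for 411 of them. Without both libraries numbered 3 the counts were 1762 (12.8%), 984 (7.13%) higher and 778 (5.64%) lower, and 400 of the 412 passed. At an unadjusted p under 0.05, 2364 genes (17.1%) were higher and 1791 (13.0%) lower. The unblocked calls sat close to the threshold. Leaving out WT replicate 1, 3 or 4, or HIF2A cKO replicate 1 or 2, left 5 to 8 calls, while leaving out WT replicate 2, HIF2A cKO replicate 3 or HIF2A cKO replicate 4 gave 941 to 2600. The labels do not say that the libraries came from separate animals, so p-values measure only how far these samples spread, and that spread may be technical.

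The naming rule for the largest rises and falls took only calls whose groups did not overlap. Of the 15 largest rises that it took, Inhbb and Ramp3 had the highest log2 differences. Inhbb, the beta B subunit of activin and inhibin, was at 12.8, 47.2, 6.89 and 5.50 FPKM in WT and at 204, 211, 60.2 and 133 in HIF2A cKO (3.34 log2, SE 0.65, adjusted p = 0.0445). Ramp3, which forms adrenomedullin receptors with Calcrl, was at 35.0, 65.7, 11.7 and 20.5 in WT and at 319, 360, 93.5 and 246 in HIF2A cKO. WT replicate 2 was the highest WT library for both, and HIF2A cKO replicate 3 the lowest of its group. P2ry14, a receptor for UDP-sugars, was at 21.3, 48.7, 11.5 and 14.7 against 125, 125, 64.1 and 128, and its lowest HIF2A cKO library was again replicate 3 (2.31 log2, SE 0.42). Ngfr, the p75 neurotrophin receptor, was at 50.9, 82.5, 45.02 and 33.5 against 249, 239, 137 and 163. Nrg2, a neuregulin that signals through ErbB receptors, rose from 2.84 ± 1.05 to 12.0 ± 5.43 (SD, n = 4 each). Crabp1, a retinoic acid binding protein, was at 4.37, 8.06, 3.24 and 4.88 in WT and at 48.2, 60.05, 15.1 and 36.9 in HIF2A cKO.

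Among transcription factors, Cebpb, a leucine zipper factor that the uterus needs for decidualization, was at 8.48, 13.1, 11.6 and 9.37 FPKM in WT and at 32.8, 51.9, 32.2 and 22.5 in HIF2A cKO (1.58 log2, SE 0.23, adjusted p = 0.0370 in limma). Replicate 3 was not the lowest HIF2A cKO library here. Klf4, a zinc finger factor of epithelia, was at 14.8, 23.2, 20.4 and 15.2 against 66.8, 73.4, 30.5 and 43.8. Atf5, a stress-related leucine zipper factor, rose from 43.3 ± 15.1 to 117 ± 30.8 (SD, n = 4 each), and the homeobox gene Prrx2 from 5.49 ± 2.28 to 18.1 ± 6.77. Gadd45g, a growth arrest and stress gene, was at 17.5, 50.9, 30.6 and 13.9 against 161, 194, 104 and 153. The other genes of this group had roles in matrix and metabolism. Col6a4, a type VI collagen chain, was at 79.7, 108, 34.9 and 71.4 against 401, 414, 141 and 279. Spon2, a secreted matrix protein, was at 29.8, 42.1, 28.5 and 32.2 against 132, 134, 74.8 and 104 (1.70 log2, SE 0.20, adjusted p = 0.0241). Arg1, which splits arginine into ornithine and urea, was at 1.00 to 2.27 in WT and at 31.6, 25.5, 5.35 and 6.85 in HIF2A cKO, where replicates 1 and 2 stood well above 3 and 4. Atp8a1, a phospholipid flippase, rose from 19.3 ± 9.49 to 49.2 ± 5.31.

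Among genes that fell, Ptn stood at the head of those with a gene name. Ptn (chromosome 6, 36714929 to 36810220, minus strand, mm10), the heparin-binding growth factor pleiotrophin, was at 143, 108, 176 and 126 FPKM in WT and at 42.6, 36.3, 58.6 and 48.2 in HIF2A cKO (-1.55 log2, SE 0.18, adjusted p = 0.0240 in limma). Replicate 3 was the highest and replicate 2 the lowest library in both groups. Pfn2, an actin-binding profilin, fell from 70.3 ± 10.3 to 35.7 ± 7.18 (SD, n = 4 each), and Sulf1, which trims sulfate from heparan sulfate, from 33.1 ± 6.33 to 16.7 ± 3.70. Eda2r, a receptor of the TNF receptor family, fell from 12.4 ± 1.85 to 5.91 ± 2.13 and Art3, an ADP-ribosyltransferase family member, from 15.1 ± 2.32 to 7.60 ± 0.745. Each of these genes was lower in HIF2A cKO in all 4 pairs, which the naming rule fixed by taking only genes without overlap. Of the 15 largest falls that the naming rule took, 6 were cDNA clone models with no gene name. AK186242 was at 37.6, 30.9, 28.9 and 14.7 FPKM in WT and was listed at 0 in all 4 HIF2A cKO libraries (adjusted p = 0.000303 in limma). As for Col1a1 and Col1a2 in the same libraries, such a 0 may be a failed estimate, and its p rests on 4 equal values. AK219583 fell from 26.4 ± 2.22 to 8.64 ± 3.67, AK199258 from 13.2 ± 0.838 to 6.29 ± 1.16, AK178890 from 12.1 ± 3.51 to 2.45 ± 1.96, AK216920 from 11.4 ± 0.951 to 1.65 ± 2.01 and AK210685 from 11.3 ± 0.687 to 2.22 ± 1.78. In all, 6 tested genes were listed at 0 in the 4 HIF2A cKO libraries, and 4 of these passed the threshold and count among the 163 lower genes. No tested gene was listed at 0 in the 4 WT libraries.

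**Figure D1:**
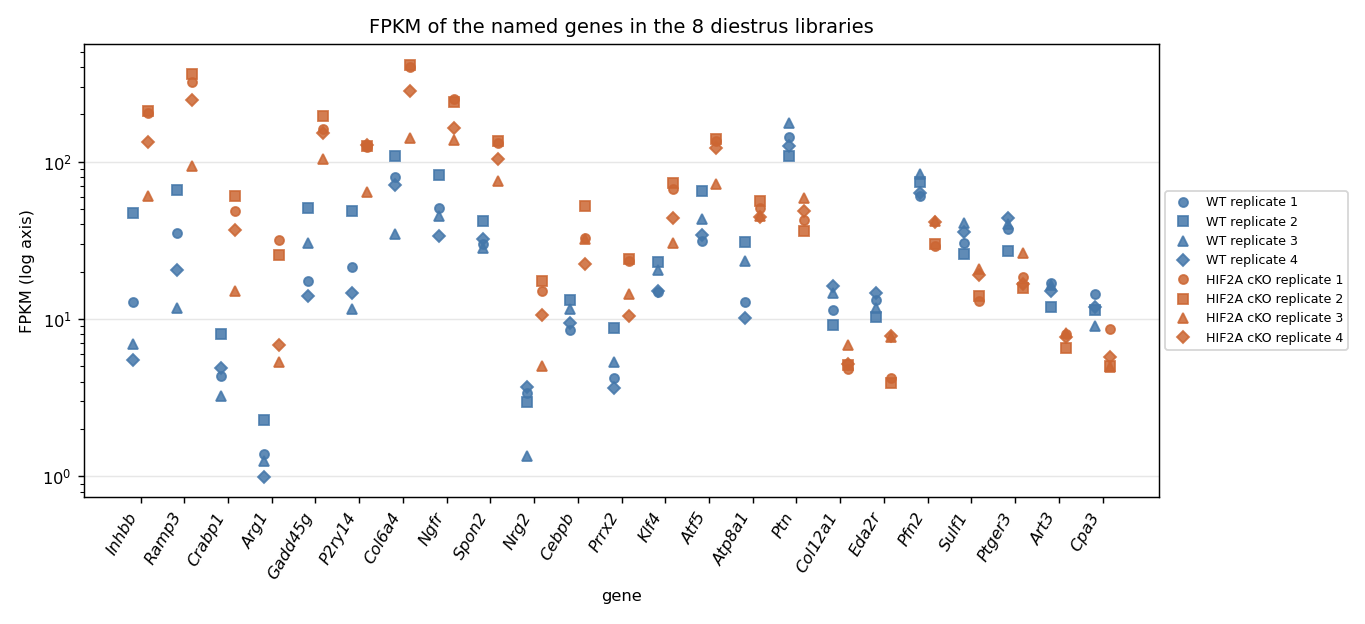
FPKM on a log axis of 23 named genes with a gene name that rose (left) or fell (right), each point 1 library, blue WT and orange HIF2A cKO, with the marker giving the replicate number. The naming rule took only genes whose groups do not overlap. HIF2A cKO replicate 3 (triangles) is the HIF2A cKO library nearest to WT for Inhbb, Ramp3, Col6a4 and P2ry14.

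Genes of mitosis were higher in HIF2A cKO. Of 26 measured genes of mitosis and the G2/M step, 15 rose and none fell in limma, against 1.80% of all genes that rose (20 with the replicate block, against 8.93%, and 23 without both libraries numbered 3, against 7.13%). The median difference was 0.59, and all 26 members were on the higher side, against 52.7% of all genes. Ube2c, the ubiquitin carrier of the anaphase-promoting complex, was at 28.5, 29.4, 25.0 and 30.3 FPKM in WT and at 60.9, 70.6, 40.6 and 58.6 in HIF2A cKO (0.98 log2, SE 0.16, adjusted p = 0.0379). Plk1, a mitotic kinase, was at 10.7, 9.80, 8.45 and 10.5 against 20.6, 24.2, 14.8 and 22.4. Cdc20, the activator of the same complex, was at 17.99, 16.9, 13.2 and 16.98 against 30.8, 35.6, 23.1 and 32.3. The WT libraries lay close together and every HIF2A cKO library was above them. The spindle motor Kif20a, chosen after its values were seen, was at 8.72, 8.38, 8.83 and 8.15 against 13.3, 15.2, 13.6 and 15.9, so that here replicate 3 was no nearer to WT than replicate 1 (0.70 log2, SE 0.08, adjusted p = 0.0171).

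None of 27 genes of DNA replication and S phase passed in limma, and 11 were higher at an unadjusted p under 0.05, against 17.1% of all genes. With the replicate block 7 rose, against 8.93%, and without both libraries numbered 3 2 rose, against 7.13%. The median was 0.32. Mcm5, a subunit of the replicative helicase chosen as an example after its values were seen, was at 22.0, 28.8, 16.5 and 18.4 FPKM in WT and at 30.6, 31.9, 22.4 and 30.3 in HIF2A cKO (0.43 log2, SE 0.18, adjusted p = 0.150 in limma, and 0.0412 with the block). Its groups overlapped, with WT replicate 2 inside the HIF2A cKO range. The difference between the lists of S phase and mitosis was not tested. Of 14 measured CDK inhibitors, D cyclins and Gadd45 and Btg genes, 1 passed in limma, Gadd45g, against 2.98% of all genes.

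**Figure D2:**
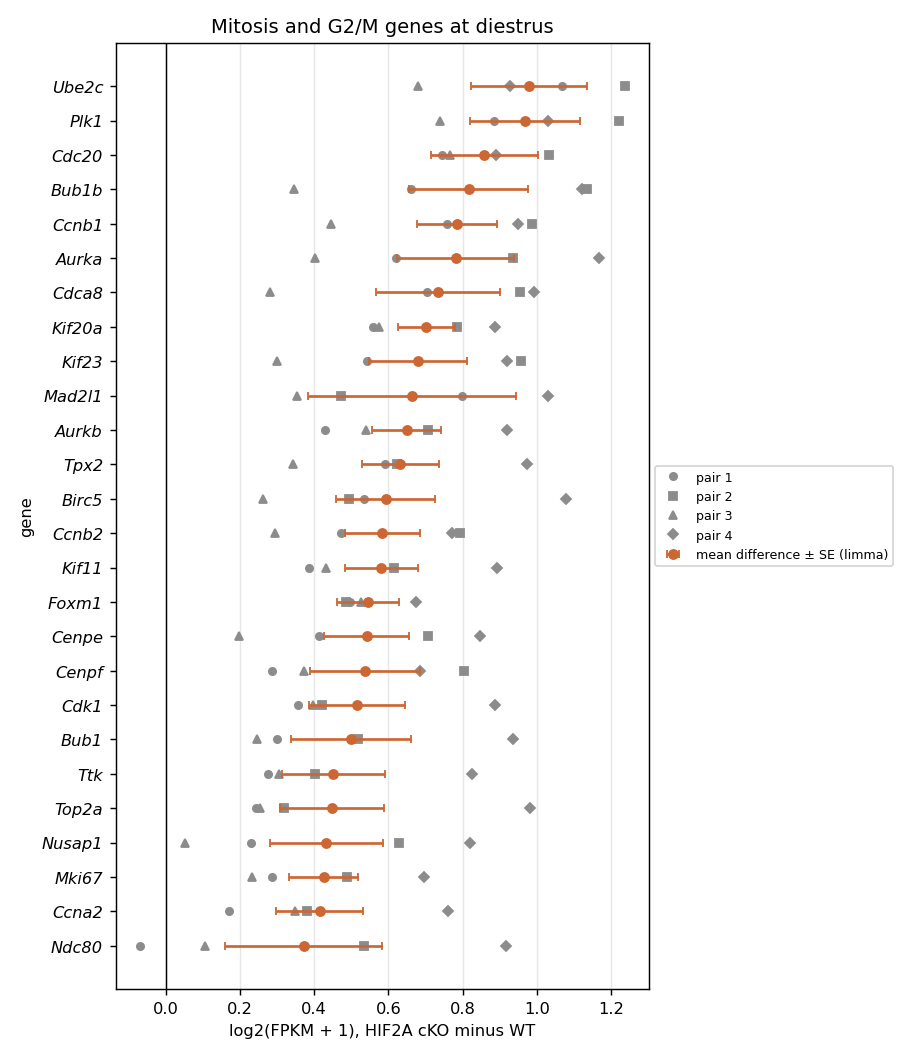
Difference of log2(FPKM + 1), HIF2A cKO minus WT, for the 26 genes of mitosis and G2/M, with grey markers for the 4 same-numbered pairs and orange points for the mean difference with its standard error from limma. Every orange point lies right of 0, and pair 3 (triangles) lies left of the mean for most genes.

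Cholesterol genes gave the highest median of the 50 gene lists, at 1.00 over 24 measured members of synthesis, uptake and export. None passed in limma, where 22 were higher and 1 lower at an unadjusted p under 0.05, against 17.1% and 13.0% of all genes. With the replicate block 17 rose and none fell, against 8.93% and 6.27% of all genes, and without both libraries numbered 3 20 rose and none fell, against 7.13% and 5.64%. In 5 members all HIF2A cKO values lay above all WT values, against 8.99% of all genes. Members named here were chosen after their values were seen. Sqle, the epoxidase that commits squalene to sterols, was at 9.50, 19.8, 10.1 and 7.91 FPKM in WT and at 46.8, 47.0, 15.01 and 38.5 in HIF2A cKO (1.52 log2, SE 0.39, adjusted p = 0.0594 in limma, and 0.0305 with the block). HIF2A cKO replicate 3 lay within the WT range, and the other 3 HIF2A cKO libraries lay above it. Fdps, which makes farnesyl pyrophosphate, was at 15.8, 34.8, 20.2 and 13.6 against 88.3, 88.9, 22.9 and 57.8, with a difference of 1.48 (adjusted p = 0.0784 in limma, 0.0433 with the block and 0.0242 without both libraries numbered 3).

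The regulators of the pathway lay on the same side as its enzymes. Srebf2, the transcription factor that drives sterol synthesis, was at 19.2, 31.5, 25.0 and 16.4 FPKM in WT and at 60.4, 56.0, 34.8 and 40.2 in HIF2A cKO (1.03 log2, SE 0.23, adjusted p = 0.0511 in limma, and 0.0280 with the block). Its groups did not overlap. Insig1, which holds the SREBP proteins in the endoplasmic reticulum when sterols are plentiful, was at 8.75, 13.7, 7.53 and 6.69 against 28.8, 28.1, 11.2 and 21.3, and WT replicate 2 exceeded HIF2A cKO replicate 3. Hmgcs1, an early enzyme of the pathway, was at 21.8, 32.0, 22.4 and 23.6 against 61.8, 61.2, 25.2 and 59.0 (0.96 log2, adjusted p = 0.0752 in limma, and 0.0385 with the block). The members on the other side were the sterol exporters. Abca1 was at 22.2, 7.10, 16.4 and 23.4 against 7.66, 7.45, 10.7 and 7.57 (-0.86 log2, adjusted p = 0.126 in limma, and 0.0773 with the block). In Abca1 WT replicate 2 lay with the HIF2A cKO libraries. Abcg1 was at -0.56 (adjusted p = 0.263). Srebf1, the related factor of fatty acid synthesis and no member of the list, passed in limma, at 19.2, 20.4, 17.7 and 18.02 against 37.1, 36.2, 23.4 and 27.7 (0.67 log2, SE 0.14, adjusted p = 0.0487).

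Promoters of the sterol genes were searched for TCACCCCA on both strands, a core of sterol regulatory elements, in the RefSeq windows from 250 bases before to 50 after the gene start (GRCm38.p6). Of 24 members 16 had a window and 2 of these (12.5%) held the motif, against 1.77% of all 27025 gene symbols and 1.56% of 32851 windows. These 2 are shown because they carry the motif of the pathway and passed with the block, and they were chosen after their values were seen. Srebf2 is read from chr15:82147019-82147318 (plus strand) and Hmgcs1 from chr13:119690101-119690400 (plus strand), 5′ to 3′, with the motif in capitals. A match is a description of the letters and not a bound site. The members are sterol genes chosen from general knowledge, and their motif share is no result of these libraries.
Srebf2: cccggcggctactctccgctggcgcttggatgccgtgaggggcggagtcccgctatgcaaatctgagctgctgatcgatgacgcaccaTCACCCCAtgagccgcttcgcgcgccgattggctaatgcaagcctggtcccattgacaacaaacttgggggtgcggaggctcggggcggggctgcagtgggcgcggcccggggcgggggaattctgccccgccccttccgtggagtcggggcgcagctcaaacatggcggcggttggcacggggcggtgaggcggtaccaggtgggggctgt
Hmgcs1: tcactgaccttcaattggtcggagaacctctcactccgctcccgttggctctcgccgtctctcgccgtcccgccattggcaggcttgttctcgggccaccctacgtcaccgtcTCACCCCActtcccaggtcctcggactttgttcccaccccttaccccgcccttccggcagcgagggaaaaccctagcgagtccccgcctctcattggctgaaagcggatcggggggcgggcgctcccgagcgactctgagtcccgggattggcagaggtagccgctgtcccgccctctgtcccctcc
Each window held the motif 1 time.

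**Figure D3:**
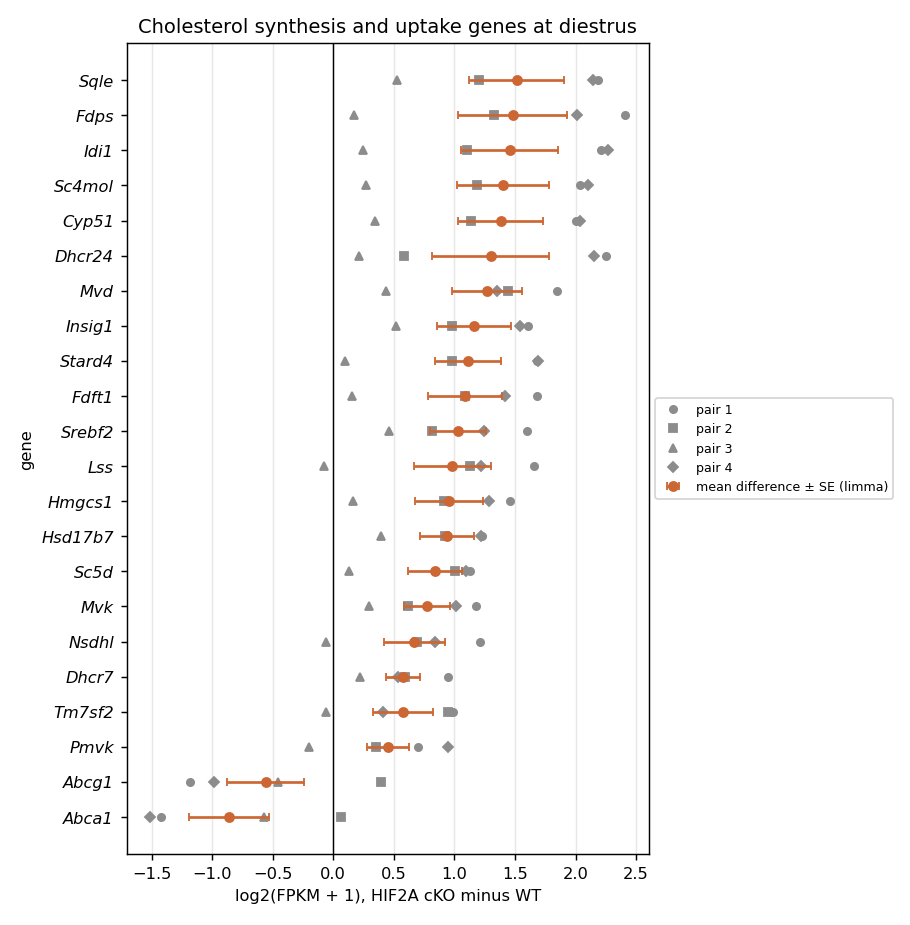
Difference of log2(FPKM + 1), HIF2A cKO minus WT, for 22 of the 24 cholesterol genes, with grey markers for the 4 same-numbered pairs and orange points for the mean difference with its standard error from limma. Of the genes shown 20 lie right of 0, with Abca1 and Abcg1 on the left, and pair 3 (triangles) shows the smallest difference for Sqle and Fdps.

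Of 10 measured components of the HIF system none passed in limma, against 2.98% of all genes. At an unadjusted p under 0.05, 1 was higher and 1 lower, and 1 passed with the block, against 15.2%, so these counts do not set the list apart. Hif1a, the paralog of Epas1, was at 51.8, 86.9, 61.3 and 54.0 FPKM in WT and at 93.6, 77.1, 75.9 and 72.1 in HIF2A cKO (0.35 log2, SE 0.16, adjusted p = 0.193), with WT replicate 2 above 3 of the HIF2A cKO libraries. Without that library the adjusted p in limma was 0.0411, in a fit that gave 1075 calls in all. This was the 1 fit leaving out a single library in which Hif1a passed. Its adjusted p was 0.169 with the block and 0.261 without both libraries numbered 3. The gene that passed with the block was Egln3, a HIF prolyl hydroxylase that HIF itself induces, at 4.03, 3.28, 1.90 and 3.87 against 10.5, 9.73, 2.69 and 6.82 (0.89 log2, adjusted p = 0.141 in limma, and 0.0322 with the block). Its lowest value in both groups was that of replicate 3. Arnt, the partner subunit, was at 0.10 log2 (adjusted p = 0.420), and Vhl, which recognises hydroxylated HIF, at 0.02.

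Among 24 measured hypoxia targets outside glycolysis, 1 rose and 1 fell in limma, against 1.80% and 1.18% of all genes. With the block 5 rose and 3 fell, against 8.93% and 6.27%. Vegfa (chromosome 17), the angiogenic growth factor, was at 33.6, 38.5, 38.0 and 31.7 FPKM in WT and at 43.5, 48.8, 54.2 and 48.0 in HIF2A cKO (0.45 log2, SE 0.09, adjusted p = 0.0464). In this gene replicate 3 was the highest HIF2A cKO library. Bnip3, a mitophagy receptor, was at 18.7, 16.8, 19.8 and 19.3 against 11.7, 11.2, 14.6 and 12.8 (-0.54 log2, SE 0.09, adjusted p = 0.0428). Its paralog Bnip3l was lower with the block, at 32.4, 28.1, 35.6 and 30.9 against 21.7, 21.9, 29.6 and 21.6 (adjusted p = 0.0713 in limma, and 0.0291 with the block). Car12, a membrane carbonic anhydrase, was at 9.27, 19.9, 9.77 and 5.80 against 34.5, 31.6, 42.1 and 18.8 (1.49 log2, adjusted p = 0.0524 in limma, and 0.0220 with the block). Other members did not pass in either fit, among them Ndrg1 (-0.07 log2, adjusted p = 0.845), Hmox1 (0.14, adjusted p = 0.560) and Kdm3a (-0.13, adjusted p = 0.370). Bnip3l, Car12 and these 3 genes were chosen after their values were seen.

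Of 19 measured glycolytic genes 1 rose and none fell in limma, against 1.80% and 1.18% of all genes. Their differences were positive in 15, against 52.7% of all genes, with a median of 0.38. With the block 8 rose, against 8.93%, and without both libraries numbered 3 5 rose and 1 fell, against 7.13% and 5.64%. Pfkl, the liver type of the phosphofructokinase that commits sugar to glycolysis, was at 19.2, 21.7, 19.3 and 18.4 FPKM in WT and at 27.0, 27.9, 23.3 and 25.5 in HIF2A cKO (0.38 log2, SE 0.08, adjusted p = 0.0464 in limma). Its muscle paralog Pfkm was at 21.0, 19.6, 21.7 and 22.8 against 19.7, 18.3, 19.1 and 17 (-0.19, adjusted p = 0.133). Pgam1, a mutase of lower glycolysis, was at 38.6, 47.5, 37.6 and 39.7 against 57.0, 60.6, 50.6 and 51.8 (0.42, adjusted p = 0.0508 in limma, and 0.0244 with the block). Pfkfb3 separated replicate 3 from the other libraries, at 20.8, 22.8, 31.8 and 21.9 in WT and at 12.1, 11.2, 40.3 and 13.8 in HIF2A cKO (-0.50, adjusted p = 0.383). Without both libraries numbered 3 its difference was -0.78 (adjusted p = 0.0112). Pfkm, Pgam1 and Pfkfb3 were chosen after their values were seen.

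The promoters of Bnip3 and Pfkl, called genes of these lists, are shown because HIF binds the cores ACGTG and GCGTG, which were searched on both strands and are in capitals. Of 43 members 36 had a RefSeq window and 33 of these (91.7%) held a core in some window, windows at starts inside a gene included, against 46.7% of gene symbols and 43.8% of windows. The members are hypoxia genes chosen from general knowledge, and their share is no result of these libraries. Windows are 5′ to 3′ on the gene's strand, which is minus for both: Bnip3 chr7:138909457-138909756 and Pfkl chr10:78009758-78010057. Vegfa, the other called gene, held neither core in the window at its outermost start and is not shown.
Bnip3: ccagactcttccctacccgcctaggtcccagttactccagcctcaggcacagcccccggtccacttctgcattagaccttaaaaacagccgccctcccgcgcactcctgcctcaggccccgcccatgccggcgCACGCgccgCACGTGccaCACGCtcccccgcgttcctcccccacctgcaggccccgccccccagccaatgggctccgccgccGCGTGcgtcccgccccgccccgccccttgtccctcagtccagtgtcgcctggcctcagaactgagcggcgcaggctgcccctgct
Pfkl: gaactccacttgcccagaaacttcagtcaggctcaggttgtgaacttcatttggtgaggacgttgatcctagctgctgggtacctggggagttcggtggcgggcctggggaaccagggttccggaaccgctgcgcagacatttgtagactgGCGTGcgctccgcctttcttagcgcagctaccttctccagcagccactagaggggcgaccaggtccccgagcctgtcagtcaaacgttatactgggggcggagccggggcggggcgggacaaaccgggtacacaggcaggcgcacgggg
Bnip3, which fell, held 5 matches, 2 of them overlapping on opposite strands, while Pfkl, which rose, held 1.

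Of 23 measured progesterone response genes 1 fell and none rose in limma, against 1.18% and 1.80% of all genes. Their differences were negative in 20, against 6527 of all 13803 tested genes. At an unadjusted p under 0.05, 10 were lower, against 13.0%, and 9 fell with the block, against 6.27%. The median was -0.67. The member that passed was Nr2f2, the stromal orphan receptor downstream of Ihh, at 69.2, 57.0, 76.0 and 73.7 FPKM in WT and at 38.0, 38.7, 52.3 and 45.3 in HIF2A cKO (-0.65 log2, SE 0.13, adjusted p = 0.0445). Ihh was at 23.0, 19.6, 26.8 and 22.5 against 0.377, 0.773, 16.9 and 3.49 (adjusted p = 0.0619 in limma, and 0.0336 with the block). In HIF2A cKO it was near the lower limit of the table in replicates 1 and 2 and close to WT in replicate 3. Tsc22d3, a leucine zipper gene induced by steroids, was at 57.0, 42.0, 80.7 and 72.0 against 29.6, 32.7, 44.7 and 35.9. Fkbp5, a chaperone of steroid receptors, was at 10.8, 9.79, 13.4 and 13.4 against 5.85, 6.80, 9.21 and 6.60. Both passed with the block (adjusted p = 0.0224 for each), and in limma Fkbp5 missed at 0.0507. Among members that did not pass in either fit, Gata2 was at -0.21 (adjusted p = 0.299), Bmp2 at -0.12 (adjusted p = 0.583) and Sgk1 at 0.04 (adjusted p = 0.900).

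In the hedgehog pathway 1 of 17 measured genes fell in limma, the same Nr2f2, against 1.18% of all genes, and 4 fell with the block, against 6.27%. Ptch1, receptor and target of the pathway, was at 54.6, 44.9, 61.9 and 56.0 FPKM in WT and at 12.4, 13.4, 43.6 and 19.6 in HIF2A cKO (-1.42 log2, adjusted p = 0.0553 in limma, and 0.0263 with the block). HIF2A cKO replicate 3 lay just under the lowest WT value, and the other 3 HIF2A cKO libraries lay far below it. Foxa2, the gland transcription factor, was at 9.88, 9.12, 9.97 and 6.28 against 0.698, 1.44, 6.88 and 2.11 (-1.61 log2, adjusted p = 0.0598 in limma, and 0.0365 with the block). The gene names other than Nr2f2 were chosen after their values were seen.

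Of 22 measured estrogen response genes 3 rose and none fell in limma (Ramp3, Gadd45g and Cebpb), against 1.80% and 1.18% of all genes, and the median was 0.87. With the block 9 rose, against 8.93%, and without both libraries numbered 3 3 rose, against 7.13%. Greb1, an estrogen receptor cofactor and target, was at 10.6, 12.0, 5.87 and 6.80 FPKM in WT and at 19.1, 18.9, 14.9 and 13.1 in HIF2A cKO (0.87 log2, adjusted p = 0.0574 in limma, and 0.0174 with the block), with no overlap. The secreted lactoferrin gene Ltf spread over a wide range within WT, at 866, 88.7, 4.48 and 493, and stood at 450, 394, 69.2 and 255 in HIF2A cKO (adjusted p = 0.681). Igf1, the stromal growth factor, was at 78.0, 97.9, 174 and 104 against 178, 153, 69.2 and 112 (adjusted p = 0.779). Of the receptors, Esr1 was at 89.3, 88.8, 74.8 and 82.5 against 112, 110, 93.2 and 108, with no overlap (0.33 log2, SE 0.09, adjusted p = 0.0650 in limma, and 0.0312 with the block). Pgr was at 72.0, 106, 63.7 and 56.5 against 74.8, 71.5, 75.1 and 64.0 (-0.02 log2, SE 0.18, adjusted p = 0.942). Nrip1, a corepressor of nuclear receptors, rose in limma, at 9.20, 11.8, 9.95 and 9.31 against 25.2, 23.1, 15.3 and 16.7 (0.91 log2, SE 0.16, adjusted p = 0.0429). It was the 1 member of 17 measured steroid receptors and cofactors to pass in limma, against 2.98% of all genes. With the block 3 of that list rose and 2 fell, against 8.93% and 6.27%.

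**Figure D4:**
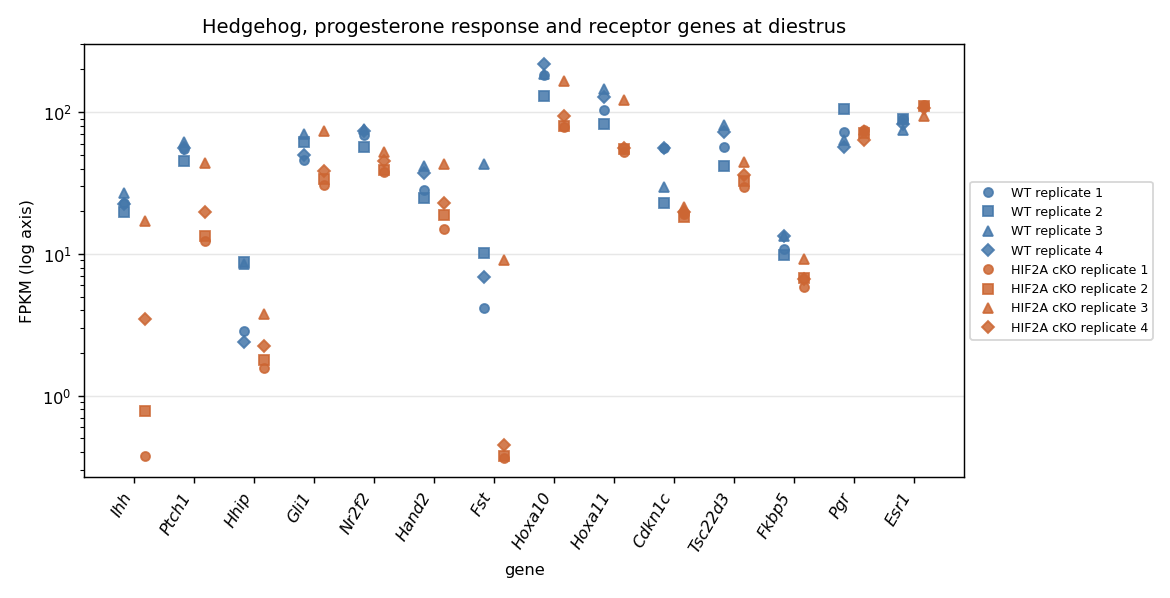
FPKM on a log axis of 14 hedgehog, progesterone response and receptor genes, chosen after their values were seen, each point 1 library with the marker giving the replicate number. HIF2A cKO replicates 1 and 2 are lowest for Ihh and Ptch1, replicate 3 lies near the WT points for these genes, and Esr1 is higher in all 4 HIF2A cKO libraries.

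Growth factor systems gave calls on single ligands and receptors. In the activin list 1 of 15 measured genes rose in limma, Inhbb, against 1.80% of all genes. With the block 3 of that list rose and 1 fell, against 8.93% and 6.27%. Fst, whose product binds and blocks activin, was at 4.13, 10.1, 43.2 and 6.84 FPKM in WT and at 0.365, 0.375, 9.07 and 0.448 in HIF2A cKO (-2.37 log2, adjusted p = 0.106 in limma, and 0.0146 with the block). Both groups had their highest Fst in replicate 3. No member of the FGF list passed in limma, where 7 of 15 were higher and 1 lower at an unadjusted p under 0.05, against 17.1% and 13.0% of all genes. With the block 6 rose and 1 fell, against 8.93% and 6.27%. Fgf10, a stromal ligand for epithelial receptors, was at 2.83, 3.71, 2.71 and 3.10 against 8.26, 7.41, 3.85 and 7.59 (0.89 log2, adjusted p = 0.0510 in limma, and 0.0264 with the block). The feedback genes Dusp6 and Spry2 were at 0.80 and 0.73 (adjusted p = 0.0266 and 0.0207 with the block). Fgfr2, the epithelial receptor, was at 40.0, 32.6, 32.2 and 43.2 against 26.7, 20.9, 28.4 and 22.4, the 1 member that fell with the block (adjusted p = 0.0365). In the ErbB list 1 of 7 measured genes passed in limma, against 2.98% of all genes. It was Nrg4, which fell from 3.51 ± 0.360 to 1.96 ± 0.422 (SD, n = 4 each, -0.62 log2). Nrg2, the neuregulin named above, is no member of that list and rose in limma (1.69 log2, SE 0.36, adjusted p = 0.0472). Nrg1 was at 9.25, 7.11, 2.71 and 7.88 against 25.3, 28.4, 6.27 and 17.7 and passed with the block (adjusted p = 0.0162).

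Of 30 measured Wnt pathway genes 1 rose and none fell in limma, against 1.80% and 1.18% of all genes. With the block 3 rose, a share near the 8.93% of all genes, and 5 fell, against 6.27%. Wnt5a, a stromal ligand, was at 58.5, 72.5, 47.5 and 57.2 FPKM in WT and at 95.1, 96.6, 80.1 and 93.3 in HIF2A cKO (0.63 log2, SE 0.13, adjusted p = 0.0445). The 5 that fell with the block were the secreted inhibitors Sfrp1, Sfrp2, Sfrp4 and Dkk3 and the agonist Rspo3. Rspo3 was at 54.6, 33.7, 36.0 and 59.8 against 16.95, 15.6, 29.5 and 23.9 (-1.07 log2, adjusted p = 0.0522 in limma, and 0.0321 with the block). In the retinoid list 5 of 18 rose and 1 fell with the block, against 8.93% and 6.27% of all genes. In limma 2 rose, against 1.80%. These 2 were Crabp1 and the receptor Rarg (24.6 ± 2.65 to 34.8 ± 3.64, SD, n = 4 each). Crabp2, which delivers retinoic acid to nuclear receptors, was at 4.31, 5.31, 0.264 and 3.25 against 37.7, 33.5, 1.38 and 24.1 (adjusted p = 0.150 in limma, and 0.0213 with the block). Its replicate 3 was the lowest in both groups. Of 21 measured Hox genes 1 fell in limma, against 1.18% of all genes. It was Hoxd10, at 65.5, 48.9, 57.7 and 66.4 against 27.7, 27.7, 43.3 and 37.1 (-0.81 log2, SE 0.16, adjusted p = 0.0445). With the block 5 Hox genes fell, against 6.27% of all genes, and 1 rose, Hoxb2, against 8.93%. In the VEGF, angiopoietin and adrenomedullin list 2 of 19 rose in limma, Vegfa and Ramp3, against 1.80%. With the block 3 of that list rose and 4 fell, against 8.93% and 6.27%. Ramp1, a further partner of Calcrl, lay on the other side, at 24.1, 13.3, 29.4 and 30.2 against 4.83, 4.46, 16.8 and 5.83 (-1.62 log2, adjusted p = 0.0565 in limma, and 0.0221 with the block), as did Calcrl (-0.36, adjusted p = 0.0268 with the block).

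Collagen genes gave calls in both directions. The list was tested without Col1a1 and Col1a2, left out as listed at 0, and without Col3a1, which was under the level for testing. Of 19 measured collagen genes 1 rose and 1 fell in limma, against 1.80% and 1.18% of all genes, and 4 rose and 2 fell with the block, against 8.93% and 6.27%. Col6a2, a chain of the beaded type VI collagen, was at 682, 921, 686 and 692 FPKM in WT and at 1704, 1633, 1091 and 1195 in HIF2A cKO (0.90 log2, SE 0.19, adjusted p = 0.0462). Col6a1 was at 691, 830, 616 and 689 against 1429, 1366, 944 and 1059 and missed in limma (adjusted p = 0.0509) but passed with the block (0.0232). The groups did not overlap for either chain. Col6a4, the type VI chain named above, is no member of this list and also rose in limma (2.04 log2, SE 0.42, adjusted p = 0.0457). Col12a1, which links collagen fibrils to their surroundings, was at 11.4, 9.16, 14.7 and 16.2 against 4.83, 5.10, 6.82 and 5.17 (-1.08 log2, SE 0.17, adjusted p = 0.0379). None of 17 collagen-modifying enzymes passed in limma, 8 were higher at an unadjusted p under 0.05, against 17.1% of all genes, and 3 rose with the block, against 8.93%. One of these was Serpinh1, the collagen chaperone, at 477, 787, 688 and 531 against 1207, 1296, 829 and 1008 (adjusted p = 0.0571 in limma, and 0.0385 with the block). In the elastic fibre list 1 of 16 rose in limma, against 1.80% of all genes. It was the elastin gene Eln, at 20.5, 35.4, 25.9 and 18.9 against 83.7, 76.1, 43.5 and 44.2.

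Of 19 measured prostaglandin genes 1 rose and 2 fell in limma, against 1.80% and 1.18% of all genes, and 3 rose and 6 fell with the block, against 8.93% and 6.27%. Ptger3, a receptor for prostaglandin E2, was at 37.4, 26.9, 40.2 and 44.1 FPKM in WT and at 18.6, 15.6, 26.3 and 16.6 in HIF2A cKO (-0.92 log2, SE 0.19, adjusted p = 0.0462). Ptgfr, the receptor for prostaglandin F2 alpha, was at 10.1, 5.87, 6.30 and 10.8 against 1.95, 2.00, 4.57 and 3.61. The enzyme Ptges, which makes prostaglandin E2, was at 4.29, 4.73, 4.93 and 4.42 against 8.10, 7.93, 6.79 and 7.14 (0.60 log2, SE 0.08, adjusted p = 0.0331). None of these 3 genes overlapped between the groups. Oxtr, the oxytocin receptor of uterine muscle, was at 11.0, 19.9, 5.65 and 10.5 against 89.6, 76.3, 21.4 and 33.2, with no overlap (2.03 log2, adjusted p = 0.0553 in limma, and 0.0156 with the block), and was chosen after its values were seen. It is a smooth muscle marker and no member of the prostaglandin list. Of 14 measured smooth muscle markers 6 had a positive and 8 a negative difference (median -0.08). With the block 1 of these markers rose and 1 fell, against 8.93% and 6.27% of all genes.

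Of 22 measured interferon response genes 18 had a negative difference (median -0.23), against 6527 of all 13803 tested genes. In limma 2 fell and 1 rose, against 1.18% and 1.80% of all genes. With the block 5 fell and 1 rose, against 6.27% and 8.93%. Ifit2, an interferon-induced RNA-binding protein, was at 4.43, 4.01, 4.87 and 4.41 FPKM in WT and at 1.89, 1.39, 3.21 and 2.18 in HIF2A cKO, and Ifit1 fell from 2.41 ± 0.755 to 0.834 ± 0.180 (SD, n = 4 each). Bst2, the antiviral membrane tether, went the other way, at 104, 166, 103 and 88.6 against 270, 257, 180 and 226 (1.03 log2, SE 0.21, adjusted p = 0.0445). The interferon regulatory factor Irf1 did not pass (0.01, adjusted p = 0.978). In the list of MHC class I presentation 1 of 10 measured genes fell in limma, against 1.18% of all genes. It was B2m, the invariant chain of class I, at 584, 392, 631 and 561 against 305, 285, 370 and 294 (-0.77 log2, SE 0.16, adjusted p = 0.0465). Of 18 clock genes 1 passed in limma, against 2.98% of all genes. It was the circadian repressor Nr1d2, at 33.6, 23.2, 24.3 and 29.7 against 13.7, 14.2, 18.6 and 17.4.

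**Figure D5:**
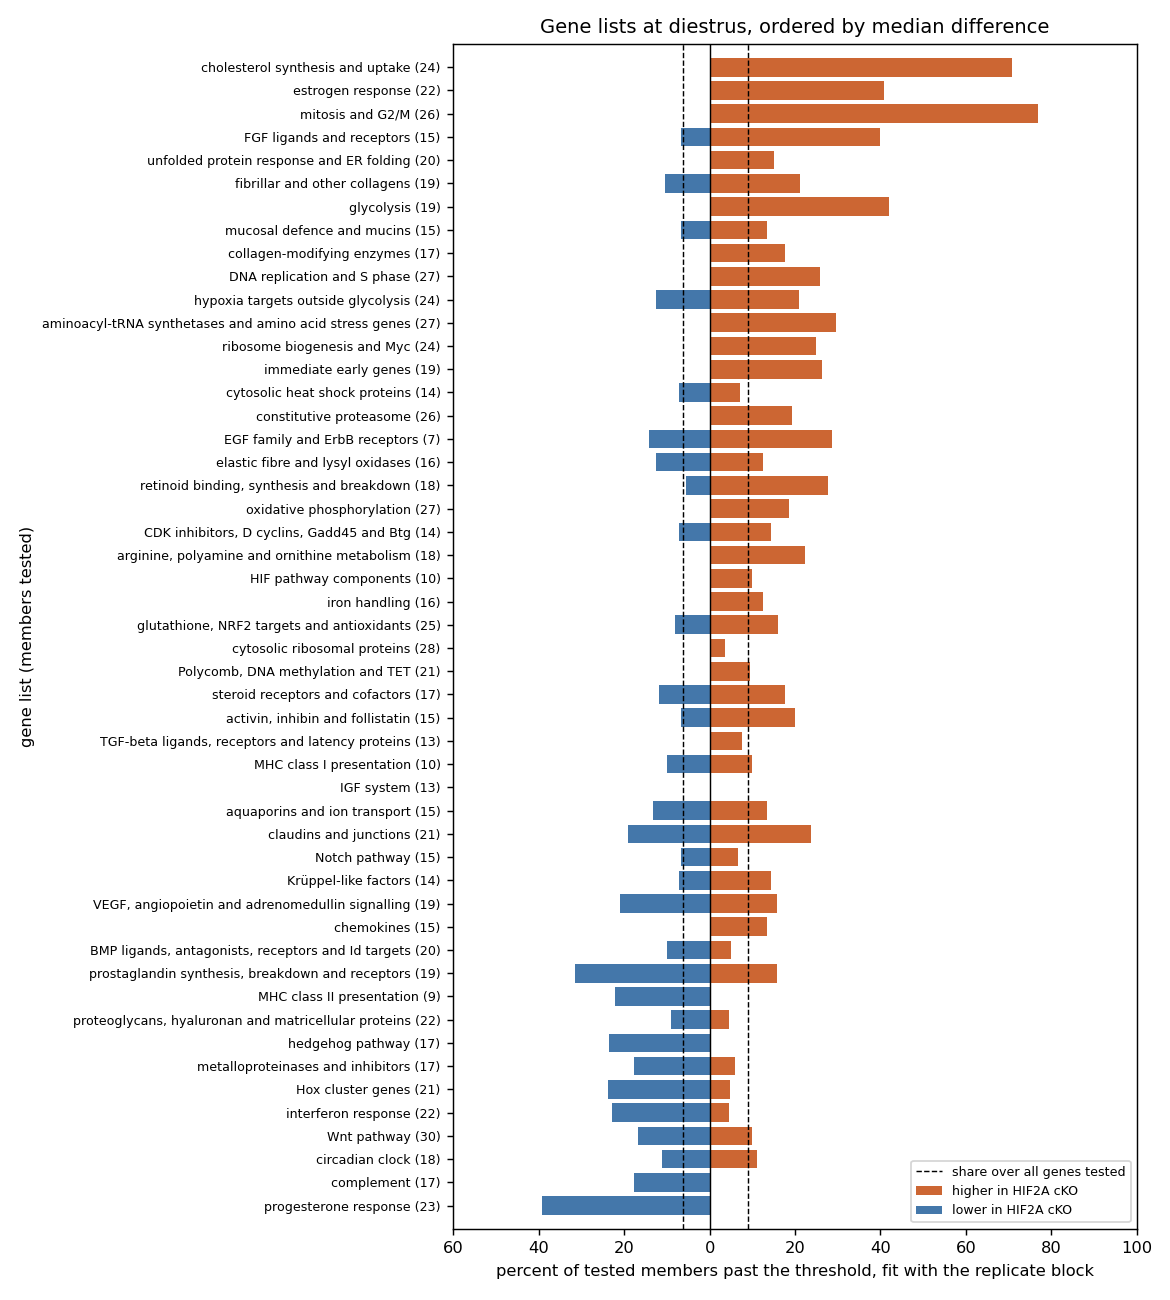
Share of the tested members of each of the 50 gene lists that passed with the replicate block, higher in HIF2A cKO to the right and lower to the left, ordered by the median difference. Dashed lines mark the shares over all tested genes, 8.93% higher and 6.27% lower, and the lists of mitosis and cholesterol extend furthest to the right.

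In 24 of the 50 gene lists no member passed in limma, and 146 of their 440 tested members were at an unadjusted p under 0.05, against 30.1% of all genes. Ribosomal proteins were among them, with 0 of 28 in limma, against 2.98% of all genes, and a median of 0.03. In that list 3 were higher at an unadjusted p under 0.05 and 1 rose with the block, against 17.1% and 8.93% of all genes. None of 20 genes of the unfolded protein response passed in limma, and 6 were higher at an unadjusted p under 0.05, against 17.1% of all genes. All 20 differences were positive (median 0.43), against 52.7% of all genes, and 3 rose with the block, against 8.93%. None of 27 aminoacyl-tRNA synthetases and amino acid stress genes passed in limma, 13 were higher at an unadjusted p under 0.05, against 17.1% of all genes, and 8 rose with the block, against 8.93%. The IGF list gave no call in limma, with the block or at an unadjusted p under 0.05, and its summed level was 1967 to 2289 FPKM in WT and 2104 to 2540 in HIF2A cKO.

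The tissue was checked against markers of the cells a uterus holds. Smooth muscle markers summed to 4791 to 6146 FPKM in WT and 4882 to 7289 in HIF2A cKO, stromal markers to 2182 to 3061 and 2341 to 3005, and luminal epithelium markers to 720 to 1381 and 1114 to 1745. RNA of these 3 cell types was thus present in every library. None of 16 luminal markers passed in limma, 3 were higher at an unadjusted p under 0.05, near the 17.1% of all genes, and 6 rose and 1 fell with the block, against 8.93% and 6.27%. Elf3, an epithelial transcription factor, was at 36.6, 38.7, 15.6 and 26.7 in WT and at 137, 166, 33.0 and 100 in HIF2A cKO (adjusted p = 0.0715 in limma, and 0.0149 with the block), and Krt8, a keratin of simple epithelium, at 116, 116, 65.1 and 91.6 against 178, 183, 84.6 and 160. Their lowest libraries were those numbered 3, and both genes were chosen after their values were seen. Of the 16 luminal markers 12 had a positive and 4 a negative difference (median 0.35), against 52.7% of all genes that were positive. Gland markers summed to 233 to 308 in WT and 129 to 224 in HIF2A cKO, with none of 11 passing in limma, 5 lower at an unadjusted p under 0.05, against 13.0% of all genes, and 3 that fell with the block, against 6.27% (median -0.61). Their part in the results on epithelial genes such as Ihh was not tested.

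Of the other markers, 1 passed in limma. Cpa3, the mast cell carboxypeptidase, was at 14.3, 11.5, 9.06 and 11.9 FPKM in WT and at 8.61, 5.03, 4.98 and 5.70 in HIF2A cKO (-0.85 log2, SE 0.18, adjusted p = 0.0464). The mast cell proteases Cma1 and Mcpt4 passed with the block (adjusted p = 0.0266 and 0.0295). Of the 9 measured mast cell and eosinophil markers, 4 had a positive and 5 a negative difference. With the block 3 of them fell, against 6.27% of all genes. The list summed to 62.9 to 96.4 in WT and 45.4 to 73.8 in HIF2A cKO. Macrophage and dendritic cell markers summed to 350 to 545 against 320 to 351, with none of 11 called in limma. Of these 5 were lower at an unadjusted p under 0.05, against 13.0% of all genes, and 1 was lower with the block, against 6.27%. Endothelial markers summed to 253 to 448 against 250 to 379, with none of 13 called in limma, against 2.98% of all genes. With the block 1 endothelial marker rose and 1 fell, against 8.93% and 6.27%. Their differences were negative in 10, against 6527 of all 13803 tested genes. Of markers of neighbouring organs, 1 of 11 of the ovary, 2 of 12 of squamous epithelium of cervix and vagina and 5 of 10 of the ciliated oviduct reached the level for testing. The oviduct markers summed to 140 to 192 FPKM in WT and 172 to 212 in HIF2A cKO, nearly all from Tppp3 (152 ± 21.6 and 184 ± 18.7, SD, n = 4 each). None of the 5 passed in limma. At an unadjusted p under 0.05, 1 was higher and 1 lower, against 17.1% and 13.0% of all genes, and 2 fell with the block, against 6.27%. The 2 squamous markers together stood at 0.793 to 1.85 FPKM in WT and 2.89 to 8.74 in HIF2A cKO. Adipocyte markers summed to 42.8 to 95.7 against 66.0 to 307, and none of 7 passed in limma or with the block (2 higher at an unadjusted p under 0.05, against 17.1% of all genes).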

How the data were processed

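RNA of whole uterus was sequenced, and the authors deposited 1 table of FPKM values per gene symbol. TopHat2 2.0.4, Cufflinks 2.0.2 and the build mm10 are named per the submitters' processing notes. For annotation, options and scaling, the sources used here give nothing. FPKM divides by length and total. Reads shared by overlapping or paralogous genes cannot be told apart in these values, and low values are the least precise. All columns matched samples by name. Libraries were grouped by their labels.

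From these values, log2(FPKM + 1) of the 8 diestrus libraries was fitted with limma 3.58.1 (R 4.3.3), 1 coefficient per genotype, an eBayes trend and Benjamini-Hochberg adjustment at 0.05 over 13803 genes. A log2 difference on this scale understates changes of low genes. The fit was also run on simulated data, and no outcome of that run is given here. Epas1, Hif1a, Esr1 and Pgr also had an exact permutation test. Groups share replicate numbers without a label saying what a number marks. Residuals of same-numbered libraries correlated at 0.332, 0.121, 0.641 and 0.230, all above the limit of 0.1 set for taking them as pairs, so values with the number as a block stand beside the main ones.

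Members and lists were chosen with earlier results of these data known. The naming rule took Epas1, Hif1a, Esr1 and Pgr, the 15 largest calls in each direction whose higher group averaged 10 FPKM or more and whose groups did not overlap, without small RNAs and numbered gene models, and the 3 largest calls of each list with at least 3. Other list members are examples chosen after their values were seen. Some genes are not reported here. Of 1035 places in 50 gene lists 940 were tested, 90 were under the level, 3 were not matched and 2 were left out as listed at 0. In 16 marker lists 132 of 199 were tested. Coordinates are from GENCODE M21 (GRCm38, the same build as mm10), and promoters from the RefSeq table. Alternatives were other pseudocounts, filters, scalings, eBayes settings, library weights, all 14 libraries, the block, a 2-fold minimum, and leaving out each library, both numbered 3 or the 2 with the most 45S signal. The block without both libraries numbered 3 was added after seeing the data.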

Additional observations from a re-analysis of the deposited data

Results flagged for a closer look

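In 4 of 84 groups of 4 values, for the 42 named genes, a library lay further from the other 3 than Dixon's critical value allows, and chance flags about 1 in 20 groups. All 4 were libraries numbered 3. Epas1 was highest in WT replicate 3, at 43.5 FPKM, with the other WT libraries at 31.2 to 32.7. P2ry14 was lowest in HIF2A cKO replicate 3, at 64.1, with the others at 125 to 128. AK210685 was lowest in WT replicate 3, at 10.3, with the others at 11.5 to 11.8, and Col12a1 was highest in HIF2A cKO replicate 3, at 6.82, with the others at 4.83 to 5.17.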

How the results depend on the processing

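The number of calls depended on the processing. Against 412 calls (249 higher, 163 lower), no filter on low values gave 9 (2 and 7), and a minimum of 2-fold left 72 (41 and 31). All 14 libraries in 1 fit gave 3414 (1988 and 1426), library weights 7387 (4097 and 3290), and the replicate block 2098 (1233 and 865). Without both libraries numbered 3 there were 1762 (984 and 778), and with the replicate block added to that 1613 (903 and 710). Leaving out the pair richest in 45S signal (WT replicate 2 and HIF2A cKO replicate 4) gave 1147 (722 and 425). Leaving out each library in turn gave 5 to 2600 calls, 0 to 1524 higher and 5 to 1076 lower, with the lowest counts without WT replicate 1 and the highest without HIF2A cKO replicate 3. The cause was not tested. Other pseudocounts, stricter filters, scalings and eBayes settings, and keeping the genes listed at 0, gave 399 to 572. Epas1 kept its direction and did not pass under any alternative. Pgr, at -0.02, was at 0.10 with library weights, 0.21 without the pair richest in 45S signal, and -0.14 to 0.16 when each library was left out (lowest without WT replicate 4, highest without WT replicate 2, and 0.03 without HIF2A cKO replicate 4), and did not pass in any of these. Of the other 38 named genes, 37 lost the call without WT replicate 1, 3 or 4, without HIF2A cKO replicate 1 or 2, and without a filter on low values. The depth of the libraries is unknown, so no counting error can be given.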

Other observations

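Calls were spread over the chromosomes, from 1.53% of tested genes on chromosome 16 to 4.34% on chromosome 15. Within 5 Mb of Epas1, none of 28 tested genes passed in limma, and 2 passed with the replicate block, Dync2li1 and Pkdcc.

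Raly, an RNA-binding protein gene on chromosome 2 (154791096 to 154867261, mm10), was at 201, 356, 184 and 175 FPKM in WT and at 714, 662, 430 and 527 in HIF2A cKO (1.38 log2, SE 0.25, adjusted p = 0.0445 in limma). It overlaps the agouti gene on the map, and reads of overlapping genes cannot be told apart here.

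The WT libraries fell apart in some genes in a way the labels do not give. Ltf was at 866 and 493 FPKM in WT replicates 1 and 4 and at 88.7 and 4.48 in replicates 2 and 3. Wnt4 was at 21.3 and 20.5 against 3.98 and 1.29, and Calb1 at 5.47 and 8.94 against 55.8 and 27.0. On the second principal component WT replicates 1 and 4 stood at -29.5 and -28.2, and replicates 2 and 3 at 6.08 and 18.7.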
